A study of Mus musculus with 48 samples.

Results

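MHCIIhi dermal macrophages are skin-resident phagocytes that carry much MHC class II on their surface, and they were profiled here on day 11 of repeated imiquimod treatment and in untreated skin. The samples were taken by their source label, which gave 3 arrays of cells from imiquimod-treated ear skin at day 11 and 3 arrays from untreated ear skin, 6 of the 48 arrays in the series. Per the labels the cells were sorted as CD11b+ CD64hi CCR2low Ly-6Clow MHCIIhi. Treated mice received 5% imiquimod cream (Aldara) on each side of the ear every day, at 7 mg of imiquimod per side in a 14-day course. The protocol, given with treated and untreated samples alike, states an age of 8 to 11 weeks. The other groups used below are MHCIIlow dermal macrophages, dermal CD11b dendritic cells (CD11b DC) and dermal monocyte-derived dendritic cells (moDC), each with 3 arrays at day 11 and 3 untreated. MHCIIhi macrophages have no day 5 group here. The labels give no strain or genotype. Whether each of the 3 arrays stands for its own mouse is not stated, and the p-values therefore cover the spread among arrays, which may be technical.

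Dermal macrophages clear dead cells and debris, take up iron and lipid, and at rest express lectins and scavenger receptors of an alternatively activated kind. Imiquimod is a ligand of Toll-like receptor 7, an endosomal sensor of single-stranded RNA that signals to NF-kB and to interferon regulatory factors. Repeated application to mouse skin is widely used as a model of psoriasis-like inflammation, in which keratinocytes thicken and release alarmins and neutrophils are recruited. What was asked of these samples is how the RNA content of the sorted macrophages differed after repeated treatment.

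Expression is given as the deposited log2 value of a gene on one array, so that a difference of 1 is a doubling of the signal, and genes are compared with themselves between groups, not with each other. The label was checked by setting defining genes against CD11b DC. The complement gene C1qc read 12.31 to 12.51 on the 6 MHCIIhi arrays, against 9.33 to 10.34 on the 6 CD11b DC arrays. Likewise Csf1r, the CSF1 receptor gene, read 10.74 to 11.63 against 8.86 to 10.02, and Adgre1 (F4/80) read 10.36 to 10.73 against 8.66 to 9.56. Fcgr1, which encodes the sorting antigen CD64, read 7.57 to 9.46 in MHCIIhi cells, against 4.91 to 6.18 in CD11b DC. Ccr2, for which the sort took low cells, was detected on all 6 MHCIIhi arrays, at 6.28 to 7.39 at day 11 and 8.39 to 9.39 untreated, below the 9.98 to 10.25 of CD11b DC. Ly6c2 was not tested. H2-Eb1, an MHC class II chain, read 12.10, 12.02 and 12.07 at day 11, against 12.27, 12.10 and 12.33 in untreated cells. In MHCIIlow macrophages the same gene read 9.14, 9.95 and 9.40 at day 11 and 8.80, 8.71 and 8.51 without treatment, below all 6 MHCIIhi arrays. The array with the lowest correlation to its own group was untreated replicate 4 (r 0.959 to 0.960), and the other untreated pair correlated at 0.973. Day 11 arrays correlated at 0.975 to 0.986. All 6 arrays correlated best with their own group among the 16 groups of the series. The sample names carry one letter for all untreated dermal samples and another for all day 11 samples, and a batch that followed it cannot be told apart from treatment in the comparison of the MHCIIhi groups.

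At day 11, 1162 genes were higher and 1168 were lower in MHCIIhi macrophages than in untreated cells, which is 2330 of 15591 genes or 14.9% (limma, adjusted p under 0.05). Higher genes made up 7.45% and lower genes 7.49% of those tested, and 6.87% changed by at least 2-fold. With the arrays centred on their medians, which moved the median gene by 0.08 on the log2 scale, the share of higher genes among the calls was 60.1%, against 49.9% in the deposited scale. The count was 1374 without untreated replicate 4 and 1525 without day 11 replicate 2, and 1188 when the spread was estimated from the 6 arrays alone. Over all genes tested the median change was 0.01, and the 3 values of one group lay wholly above those of the other in 4810 genes (30.9%). In bulk RNA of sorted cells, fewer cells of a kind and less RNA per cell cannot be told apart.

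**Figure D1:**
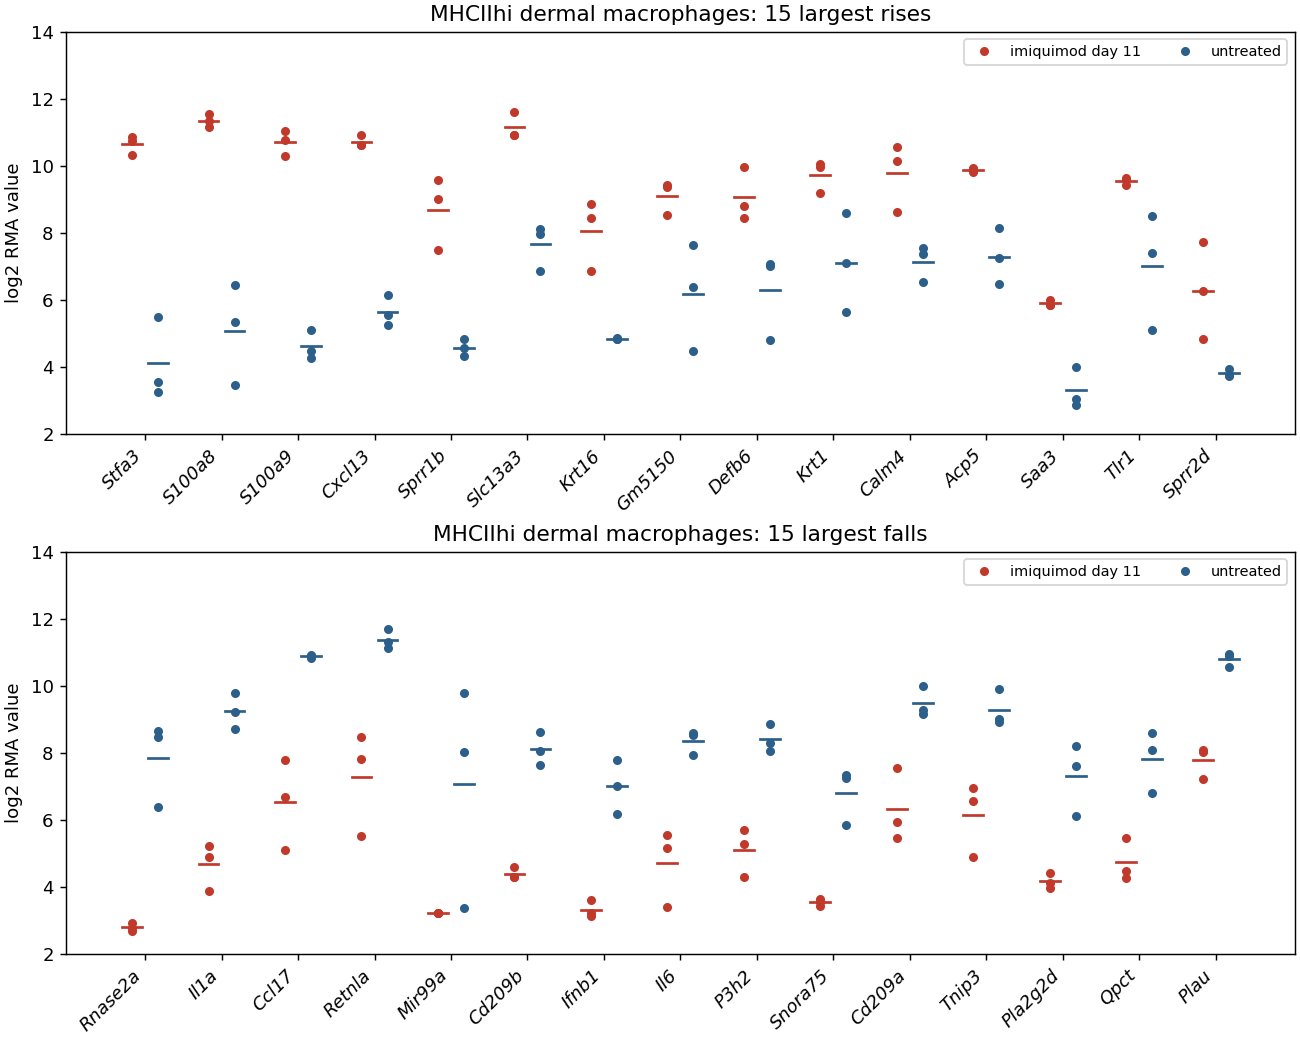
Log2 values on each array for the 15 largest rises (top) and the 15 largest falls (bottom) among called genes whose groups do not overlap, with day 11 on the left and untreated on the right of each gene and a bar at the mean of 3 arrays. Stfa3, S100a8 and S100a9 lie above 10 on all day 11 arrays and below 7 on all untreated arrays, while Mir99a rests on the untreated arrays at 8.04 and 9.78 beside another at 3.36.

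Alarmins, proteins released by stressed tissue that recruit or activate leukocytes, gave the largest rises. Of 16 tested members of the list of alarmins and acute phase proteins, 5 rose and 0 fell. That is 31.2% called, beside 14.9% of all genes, with a median change of 0.34 beside 0.01 over all genes. The calprotectin subunit gene S100a8 read 11.16, 11.55 and 11.35 at day 11, against 5.35, 6.46 and 3.47 in untreated cells (log2 change 6.26 ± 0.77 SE, n = 3 arrays a group, limma adjusted p = 4.53e-07). Its partner S100a9 read 10.31, 11.05 and 10.77 at day 11, against 5.12, 4.28 and 4.48 untreated, a 67.8-fold rise (limma adjusted p = 1.98e-12). Stfa3, a stefin that inhibits cysteine proteases, read 10.34, 10.76 and 10.88 at day 11, against 3.56, 3.26 and 5.51 untreated. The groups did not overlap, and its log2 change of 6.55 is set against untreated values of which 2 lay below 3.77, the level used as the filter on low values, so it gives no exact fold. The serum amyloid gene Saa3 (2.60 ± 0.63) and the iron-binding lipocalin gene Lcn2 (2.15 ± 0.49) rose as well. Of these 5 genes, all but Lcn2 also rose in MHCIIlow macrophages (Stfa3 by 5.62, Saa3 by 5.28, S100a8 by 5.05 and S100a9 by 4.91), and the difference between the macrophage responses was not called for any of the 16. In CD11b DC 4 of the 16 rose and in moDC 3, beside 3.55% and 2.58% of all genes, and 0 fell. No difference in response from either was called. S100a8 averaged 9.46 at day 11 and 3.97 untreated in CD11b DC, and 10.65 and 5.42 in moDC.

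Keratinocytes are a known source of calprotectin in inflamed skin, and their markers moved in the same arrays. Of 25 tested keratinocyte markers 9 rose and 0 fell, beside 7.45% of all genes higher and 7.49% lower. The median change of these markers was 0.79. Krt16, a keratin of activated epidermis, read 6.87, 8.87 and 8.44 at day 11, against 4.84, 4.83 and 4.86 untreated. Krt6a (2.42 ± 0.53), Krt17 (2.39 ± 0.50) and the basal keratin gene Krt14 (1.85 ± 0.48) were higher too, and so was the cornified envelope gene Sprr1b, which is not on the list (4.13 ± 0.59). Krt1 and Sprr2d were called in the full data but not without untreated replicate 1 (Krt1, 1.89) or day 11 replicate 2 (Sprr2d, 1.75). Averaged over the 25 markers, the level lay between 6.20 and 7.11 on day 11 arrays and between 5.39 and 6.23 on untreated arrays, so the ranges overlap slightly. Krt14 itself was well detected in untreated cells, at 8.12, 8.56 and 8.93. In MHCIIlow macrophages 0 of the 25 markers rose and 2 fell, and 0 differences in response were called. Sprr1b, off the list, was higher at day 11 there too, with 7.88, 6.39 and 7.31 against 4.45, 4.39 and 4.80 untreated. Its means at day 11 and untreated were 5.73 and 4.61 in CD11b DC, and 7.75 and 4.54 in moDC. Of 17 tested neutrophil markers 5 rose (S100a8, S100a9, Lcn2, Il1f9 and the growth factor receptor gene Csf3r) and 1, Mmp9, fell, 35.3% called beside 14.9% of all genes. Averaged over the 17, the level was 5.22 to 5.34 at day 11 and 4.35 to 4.42 untreated. The median change of the list was 0.12, so the higher average rests on a few members, S100a8 and S100a9 foremost. Some other members stayed near the lowest values: the granule genes Camp, Ngp, Elane and Mpo and the receptor gene Cxcr2 read between 3.18 and 4.39 on all 6 arrays and were not called. The part of either cell type in the rise of the alarmins was not tested.

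Chemokines, the secreted ligands that direct leukocyte migration, gave 1 rise and 11 falls among 27 tested members, beside 7.45% of all genes higher and 7.49% lower. The other 15 did not pass the test, and the median change was -0.86. The exception was Cxcl13, a ligand of CXCR5 on B cells, which read 10.64, 10.92 and 10.62 at day 11, against 5.57, 6.16 and 5.25 in untreated cells. That is a 33.5-fold rise with no overlap (5.06 ± 0.27, limma adjusted p = 4.11e-16). Its standard error, which the fit estimates from all 48 arrays, is the smallest among the 4 largest rises. Ccl17, a ligand of CCR4 on T cells, moved the other way, with 7.79, 6.67 and 5.11 at day 11 and 10.90, 10.93 and 10.83 untreated (-4.36 ± 0.40, limma adjusted p = 6.93e-10). The day 11 arrays spread over more than 2 log2 units for Ccl17, while the untreated arrays lay close together. Other members fell by less: the interferon-induced Cxcl10 by 2.50, the eosinophil attractant Ccl11 by 2.23, and the neutrophil attractants Cxcl3 and Cxcl1 by 2.09 and 1.68. The CCR2 ligands Ccl7 and Ccl2 fell by 1.62 and 1.34. Ccl22, which shares its receptor with Ccl17, read 7.50, 7.89 and 6.81 at day 11, against 8.31, 7.62 and 8.14 untreated, and was not called (-0.62 ± 0.45, limma adjusted p = 0.404).

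Among 15 tested receptors for chemokines and other chemoattractants, 0 rose and 4 fell, 26.7% called beside 14.9% of all genes. Ccr2, the receptor by which monocytes leave the marrow and a gate of this sort, read 7.39, 6.28 and 6.90 at day 11, against 8.91, 9.39 and 8.39 untreated (-2.04 ± 0.38, limma adjusted p = 0.000206). The fractalkine receptor gene Cx3cr1 fell by 1.73, with the 3 day 11 arrays all below the 3 untreated arrays. S1pr1 and C5ar1 were also lower in the full data, and the count of called receptors was 2 without untreated replicate 4 or without day 11 replicate 3. Of 19 tested monocyte genes 1 rose, Cd300e (2.14 ± 0.43), and 2 fell, Ccr2 and the fibronectin gene Fn1 (-1.75 ± 0.37). That is 15.8% called, near the 14.9% of all genes.

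Inflammatory cytokines gave more falls than rises. Of 21 tested cytokines and inflammatory enzymes 1 rose and 5 fell, 28.6% called beside 14.9% of all genes, with a median of -0.24. Il1a, which encodes the alarm cytokine interleukin-1 alpha, read 3.89, 5.23 and 4.89 at day 11, against 8.73, 9.22 and 9.80 in untreated cells, a 23.9-fold fall (limma adjusted p = 1.42e-07). Il6 read 3.40, 5.17 and 5.56 at day 11 and 7.95, 8.61 and 8.55 untreated (-3.66 ± 0.66). Tnf, with 8.30, 9.93 and 9.99 against 11.58, 11.88 and 11.73, fell 5.01-fold. In all 3 of these genes day 11 replicate 1 was the lowest array. Tnfsf14 (LIGHT) and the granulocyte growth factor gene Csf3 fell by 2.49 and 1.28, and the interferon beta gene Ifnb1, counted apart from this list, fell by 3.69. Il1f9, which encodes the epithelial cytokine IL-36 gamma, was the member that rose, and it was not called without day 11 replicate 1 (1.30, limma adjusted p = 0.0565). Il1b was 1.09 ± 0.48 lower and not called (limma adjusted p = 0.131), with 8.54, 9.80 and 9.30 at day 11 and 9.91, 10.34 and 10.67 untreated. Il23a and Il12b, which encode subunits of the cytokines that drive the psoriasis-like response, lay between 3.57 and 4.29 on all 6 arrays and were not called.

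Genes that process and answer interleukin-1 split. Of 15 tested, 2 rose and 6 fell, 53.3% called beside 14.9% of all genes. The inflammasome sensor gene Nlrp3 fell 7.77-fold, with 6.04, 7.63 and 7.84 at day 11 and 10.05, 10.28 and 10.06 untreated. Its adaptor gene Pycard (ASC) rose 2.61-fold, with 9.72, 10.01 and 10.41 at day 11 and 8.90, 8.44 and 8.64 untreated (limma adjusted p = 2.49e-06), and the pore protein gene Gsdmd rose by 0.96 ± 0.25. The decoy receptor gene Il1r2 fell by 1.28 and the protease gene Casp4 by 0.99. The 8 calls became 4 without untreated replicate 4 and 5 without any single day 11 array.

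The NF-kB pathway, which links Toll-like and cytokine receptors to the genes above and induces its own inhibitors, had 22 tested members. Of these 0 rose and 16 fell, 72.7% called beside 7.49% of all genes lower, with a median change of -1.05. The transcription factor subunit gene Rel read 8.11, 9.09 and 9.31 at day 11, against 10.51, 10.88 and 10.73 untreated (-1.87 ± 0.35, limma adjusted p = 0.000233), and Rela fell by 1.13. Inhibitors fell with the subunits: Nfkbib by 1.64, Nfkbie by 1.36, Nfkbia by 1.03, and Tnip3, which binds the deubiquitinase A20, by 3.14. The adhesion molecule gene Icam1, a target of the pathway, fell by 2.64, with 6.19, 6.17 and 6.64 at day 11 and 9.10, 8.91 and 8.91 untreated. Leaving out any one of the 6 arrays did not move the count of 16 by more than 1.5 times.

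Promoter sequence of these genes is shown because NF-kB binding sites are short and can be read in it. The NF-kB consensus motif (10 bases, either strand) was searched in windows of 250 bases before to 50 after each RefSeq gene start on GRCm38.p6. It occurred in 8.46% of 32851 windows and in 12.2% of 12285 tested genes with a window. Among the 13 NF-kB pathway genes that fell and had a window it occurred in 8, and among the 5 tested members that were not called it occurred in 3. It was found in 4 of 5 fallen chemokine genes with a window, against 1 of 13 other chemokine genes, and in 1 of 4 fallen cytokine genes, against 3 of 12 other cytokine genes. Another 6 fallen chemokine genes had no window. Of the 4 chemokine genes with a match, Cxcl1, Cxcl2 and Cxcl3 are related genes that lie close together on chromosome 5. A match describes letters in a window and is not a binding site. Windows of 4 fallen genes that hold the motif, chosen after their values were seen, are given 5′ to 3′ on the gene's strand, with the motif in capitals; where matches overlap, as in Cxcl10 and Cxcl3, the capitals run together. They lie at chr5:30012864-30013163 (plus strand) for Il6, chr6:65590148-65590447 (plus) for Tnip3, chr5:92348840-92349139 (minus) for Cxcl10 and chr5:90785851-90786150 (plus) for Cxcl3.
Il6: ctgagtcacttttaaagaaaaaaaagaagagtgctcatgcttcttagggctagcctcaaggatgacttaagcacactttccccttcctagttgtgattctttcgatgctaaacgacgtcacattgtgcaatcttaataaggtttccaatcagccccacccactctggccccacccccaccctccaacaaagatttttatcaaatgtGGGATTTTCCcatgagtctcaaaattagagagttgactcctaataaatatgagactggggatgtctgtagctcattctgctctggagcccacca
Tnip3: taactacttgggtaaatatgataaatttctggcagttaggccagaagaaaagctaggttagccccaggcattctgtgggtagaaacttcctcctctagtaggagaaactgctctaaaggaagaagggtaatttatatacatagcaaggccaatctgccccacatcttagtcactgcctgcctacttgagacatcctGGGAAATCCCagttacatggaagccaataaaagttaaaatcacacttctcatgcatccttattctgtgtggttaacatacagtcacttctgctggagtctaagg
Cxcl10: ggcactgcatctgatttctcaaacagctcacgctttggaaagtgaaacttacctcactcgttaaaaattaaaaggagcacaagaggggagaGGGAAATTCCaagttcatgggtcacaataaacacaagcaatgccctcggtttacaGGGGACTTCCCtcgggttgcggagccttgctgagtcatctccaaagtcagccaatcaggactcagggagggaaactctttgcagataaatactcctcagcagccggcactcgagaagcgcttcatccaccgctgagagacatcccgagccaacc
Cxcl3: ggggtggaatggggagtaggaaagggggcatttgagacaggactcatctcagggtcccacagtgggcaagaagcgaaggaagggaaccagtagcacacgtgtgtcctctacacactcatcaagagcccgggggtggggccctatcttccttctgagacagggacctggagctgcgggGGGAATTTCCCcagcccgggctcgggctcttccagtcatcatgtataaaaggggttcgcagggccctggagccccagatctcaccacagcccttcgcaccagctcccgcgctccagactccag

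Immediate early and heat shock genes, which respond within minutes to stimuli and to cell isolation, were examined in the same arrays. Of 31 tested 2 rose and 12 fell, beside 7.45% and 7.49% of all genes, and 17 did not pass the test. The orphan nuclear receptor genes Nr4a3 and Nr4a2 fell 6.45-fold and 6.43-fold, the AP-1 gene Fosb fell by 1.41 with 9.37, 10.33 and 10.51 at day 11 and 11.48, 11.49 and 11.48 untreated, and the chaperone gene Hsp90aa1 fell by 1.31. Klf2 and Ier2 rose by 0.88 and 0.76. Nr4a1 was not called, with 8.19, 9.63 and 10.08 against 8.78, 9.48 and 9.56. Per the labels the skin was digested with dispase at either of 2 temperatures, and the labels do not tie a temperature to a sample. The part of cell isolation in the fall of these genes and of the NF-kB genes was not tested. In MHCIIlow macrophages 8 of the 22 NF-kB genes and 10 of the 31 immediate early genes fell, beside 5.39% of all genes lower. The falls were 12 and 9 in CD11b DC (6.79% of all genes lower) and 11 and 8 in moDC (5.84%). Rises were 1 NF-kB gene in MHCIIlow cells and 1 immediate early gene in each dendritic cell population. Against each of these populations, 0 members of either list differed in response.

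**Figure D2:**
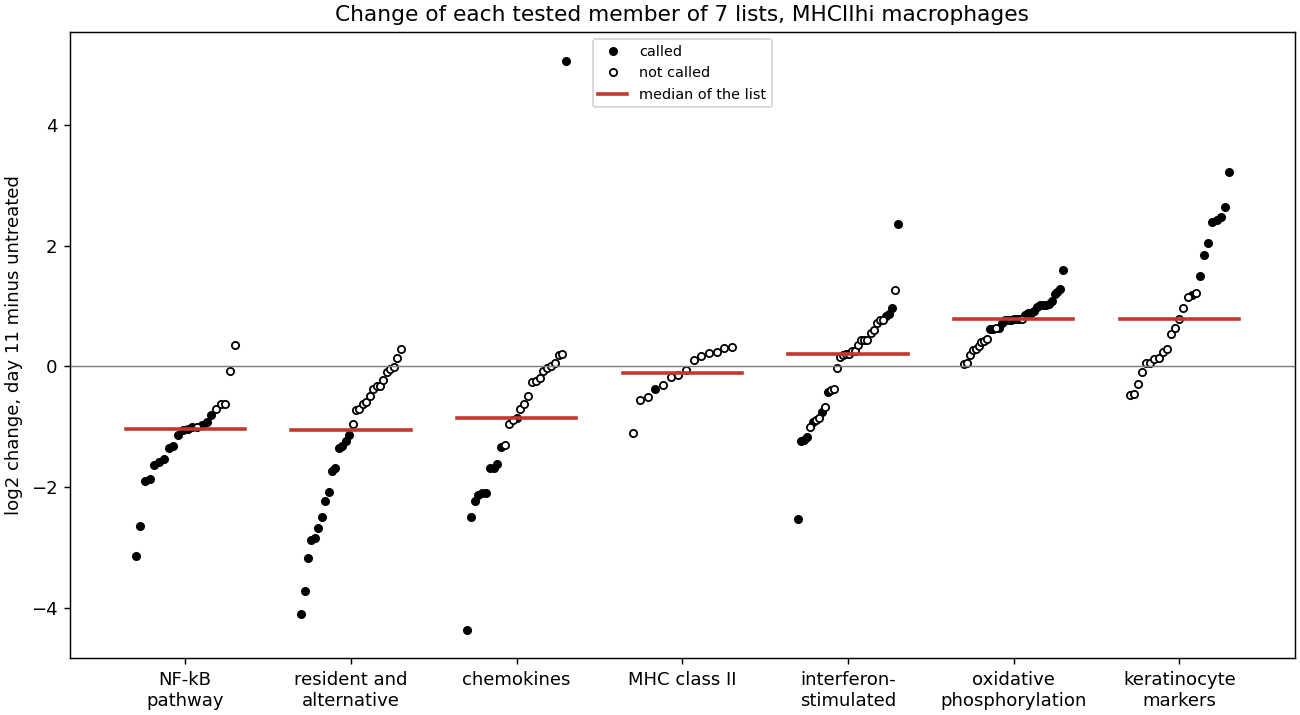
Log2 change (day 11 minus untreated) of every tested member of 7 gene lists in MHCIIhi macrophages, with filled points for called genes, open points for genes not called and a red bar at the list's median. The NF-kB and resident lists have medians of -1.05, the oxidative phosphorylation list 0.78 and the keratinocyte list 0.79, while MHC class II genes lie around 0.

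Toll-like receptor sensing changed in both directions. Of 24 tested genes 5 rose and 6 fell, 45.8% called beside 14.9% of all genes. Tlr7, the receptor of imiquimod, read 8.57, 8.63 and 8.31 at day 11 and 8.79, 8.84 and 8.13 untreated and was not called (-0.08 ± 0.38, limma adjusted p = 0.926). Tlr1 and Tlr6, the partners of Tlr2 in recognising bacterial lipoproteins, rose by 2.54 and 1.03, whereas Tlr2 itself fell by 0.98. Without untreated replicate 4, which had the lowest Tlr1 value at 5.12, the rise of Tlr1 was 1.60 and was not called (limma adjusted p = 0.0647). The inhibitory kinase gene Irak3 (IRAK-M) rose 3.18-fold, with 8.10, 8.19 and 8.44 at day 11 and 7.12, 6.57 and 6.03 untreated. The activating kinase gene Irak2 fell 2.61-fold, the adaptor gene Traf6 fell by 0.78, and the co-receptor gene Cd14 fell by 1.01.

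Interferon-stimulated genes showed no common direction. Of 34 tested 4 rose and 7 fell, 32.4% called beside 14.9% of all genes, and the median was 0.21. Ifit3, an antiviral protein gene, read 9.20, 8.95 and 8.33 at day 11, against 6.74, 7.40 and 5.24 untreated (2.36 ± 0.53, limma adjusted p = 0.00166). Oasl1 moved the other way, with 6.66, 6.01 and 6.47 at day 11 and 8.38, 8.64 and 9.71 untreated, a 5.77-fold fall. Irf7, the factor that amplifies type I interferon, was 1.26 ± 0.46 higher and not called (limma adjusted p = 0.0582), and was called at 1.83 without untreated replicate 2, whose value of 7.95 lay among the day 11 arrays. The 11 calls of the list became 4 without day 11 replicate 2, 5 without untreated replicate 4 and 7 without day 11 replicate 3.

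Of 30 tested genes of resident and alternatively activated macrophages 0 rose and 15 fell (50%, beside 7.49% of all genes lower), with a median of -1.05. Retnla (RELM-alpha) read 8.49, 7.82 and 5.53 at day 11, against 11.70, 11.13 and 11.31 untreated, a 17.1-fold fall (limma adjusted p = 0.000288). Among the C-type lectin genes of the Cd209 family, Cd209b (-3.72 ± 0.33), Cd209a (-3.17 ± 0.33) and Cd209d (-2.87 ± 0.34) fell most, and Cd209f fell with an overlap between the groups. Cd209b read 4.59, 4.31 and 4.29 at day 11 and 8.64, 8.06 and 7.64 untreated. The hyaluronan receptor gene Lyve1, the phosphatidylserine receptor gene Timd4 (Tim-4), the galactose lectin gene Mgl2 and the endothelin receptor gene Ednrb were lower too (-2.84, -2.67, -2.49 and -2.23). The haemoglobin receptor gene Cd163 read 8.89, 8.26 and 8.67 at day 11 and 10.70, 10.30 and 10.05 untreated. Not every gene of the list moved: the mannose receptor gene Mrc1 (-0.59, limma adjusted p = 0.204), Folr2 (-0.32), Arg1 (-0.01) and Vsig4 (0.13) were not called. Outside the list, Rnase2a, a secreted ribonuclease gene, had the largest fall among called genes, with 2.93, 2.69 and 2.77 at day 11 and 8.65, 8.47 and 6.40 untreated. Its day 11 values lay below 3.77, the 40th percentile of all values in the series, so the 33.0-fold change may understate the fall. The secreted phospholipase gene Pla2g2d fell 8.82-fold, with 3.98 to 4.41 on day 11 arrays and 6.11 to 8.21 on untreated arrays.

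Of 28 tested genes of the core macrophage programme 0 rose and 5 fell, with a median of -0.10. That is 17.9% called, beside 14.9% of all genes in either direction and 7.49% lower. Csf1r fell by 0.64 ± 0.16, and Cd163, Cd14, Slc15a3 and Lamp2 were the others, of which Lamp2 lost its call without any one of 4 arrays. Adgre1 (0.17 ± 0.18), Mertk (-0.22 ± 0.38), Cd68 (-0.13 ± 0.14) and the C1q genes (-0.08 to 0.21) were not called. Among 6 tested Fc receptor genes 1 was called (16.7%, near the 14.9% of all genes). It was Fcgr4, a receptor for IgG, which rose 5.07-fold with 8.22, 8.63 and 8.64 at day 11 and 6.12, 6.67 and 5.68 untreated. Fcgr1 was 0.86 ± 0.33 higher and not called (limma adjusted p = 0.0729), but was called without untreated replicate 1 or 2 (1.05 and 1.14). For uptake of dying cells, 21 genes were tested, of which the receptor genes Timd4, Axl (-1.79 ± 0.38) and Stab1 (-1.32 ± 0.31) fell and the scavenger receptor gene Scarb1 rose (1.23 ± 0.28). In the complement list of 18, the alternative pathway gene Cfb rose by 1.33 and C4b fell by 1.68 along with C5ar1. The calls were 19.0% of the uptake list and 16.7% of the complement list, near the 14.9% of all genes.

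Antigen presentation genes were examined next. Surface MHC class II was a gate of this sort in both groups, which limits what MHC class II values can show about treatment. Of 14 tested MHC class II genes 0 rose and 1 fell, the invariant chain gene Cd74, by 0.37 ± 0.11, a call that was lost without any one of 4 of the 6 arrays (both untreated replicates 1 and 4, and day 11 replicates 2 and 3). H2-Ab1 read 12.26, 12.16 and 12.03 at day 11, against 12.13, 12.28 and 12.23 untreated (-0.06 ± 0.16, limma adjusted p = 0.859). In the class I list of 15, the immunoproteasome genes Psmb8 (1.08 ± 0.11), Psmb10 (0.87 ± 0.18) and Psmb9 (0.83 ± 0.19) rose. Psmb8 read 9.23, 9.50 and 9.38 at day 11 and 8.35, 8.22 and 8.31 untreated. The chaperone genes Pdia3 and Calr fell by 0.60 and 0.43 and lost their calls without day 11 replicate 2 or 3 or untreated replicate 1.

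Of 23 tested costimulatory and maturation genes 0 rose and 8 fell, beside 7.49% of all genes lower, and 15 did not pass the test. Cd86, which costimulates T cells through CD28, read 7.96, 8.03 and 8.09 at day 11, against 9.51, 9.24 and just above 10 untreated (-1.56 ± 0.22, limma adjusted p = 3.57e-06). Tnfsf9 (4-1BB ligand), Icosl and Cd83 fell as well (-2.74, -1.37 and -1.53). The inhibitory ligand genes Cd274 (PD-L1, -0.04 ± 0.39) and Pdcd1lg2 (PD-L2, -0.74 ± 0.44) were not called. Among 22 regulatory mediators, Il10 was 1.43 ± 0.47 lower, with 7.52, 8.86 and 9.38 at day 11 and 9.77, 10.14 and 10.13 untreated. Without day 11 replicate 1 the difference was -0.89 and was not called (limma adjusted p = 0.258), and it was also lost without day 11 replicate 2 or untreated replicate 2 or 4. The galectin gene Lgals9 rose by 0.80, a call lost without day 11 replicate 1 or untreated replicate 2 or 4, and Tgfb1 was not called (0.03 ± 0.17). Of 18 tested C-type lectin receptors 1 rose and 5 fell, 33.3% called beside 14.9% of all genes. These included the fungal sensor gene Clec4n (dectin-2), which rose 4.96-fold, and Clec4e (Mincle), which fell 5.54-fold.

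Transcription factors that set the identity of myeloid cells changed in both directions. Of 29 tested 3 rose and 5 fell, 27.6% called beside 14.9% of all genes, with a median of -0.12. Irf4, which acts in dendritic cells and in alternative activation of macrophages, read 5.99, 5.54 and 5.82 at day 11, against 7.23, 7.03 and 7.11 untreated (-1.34 ± 0.34, limma adjusted p = 0.00576). Bach1, a heme-regulated repressor, and Stat3, which transmits interleukin-6 and interleukin-10 signals, fell by 1.38 and by 1.24. Nr1h3 (LXR-alpha), a sensor of oxidised sterols, rose by 1.09, and Batf3 rose by 1.04. Id3 read 7.36, 8.55 and 8.68 at day 11 and 6.78, 7.13 and 5.68 untreated, and its call was lost without untreated replicate 4 (1.24) or without day 11 replicate 2 or 3. The lineage factor gene of macrophages Spi1 (PU.1) was not called (-0.14, limma adjusted p = 0.517). In MHCIIlow macrophages 2 of these factors rose and 4 fell, and 0 differed in response.

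Oxidative phosphorylation, the mitochondrial chain that makes most cellular ATP, gave the largest share of rises among the lists. Of 35 tested genes 24 rose and 0 fell, 68.6% beside 7.45% of all genes higher, and the median change was 0.78. Complex I subunits led: Ndufs7 read 8.71, 8.97 and 9.16 at day 11, against 8.11, 7.41 and 6.53 untreated (1.60 ± 0.23, limma adjusted p = 8.93e-06). Uqcrc1 of complex III rose by 1.02, Cox5b of complex IV by 0.76 and Sdhb of complex II by 0.88. The tested ATP synthase genes (Atp5a1, Atp5b, Atp5c1, Atp5j and Atp5o) were higher by 0.19 to 0.46 and were not called. In 22 of the 24 called genes, untreated replicate 4 was the lowest array. The count was 12 rises and 0 falls with the spread taken from the 6 arrays alone. All 35 means were higher at day 11, and the same direction was seen in MHCIIlow macrophages (19 rose, 0 fell), CD11b DC (12 and 0) and moDC (11 and 0). Most of the list lay in the shorter length classes. Of its genes 13 of 17 were called in the shortest of 4 classes of genomic length (median 0.79), 9 of 10 in the next (median 0.95), and 2 of 8 in the class after that (median 0.35). Across 14729 protein-coding genes the change ran slightly against genomic length in RefSeq (Spearman rho -0.20 across genes, which are not independent), with a median of 0.07 in the shortest class and -0.08 in the longest. The part of gene length and of RNA quality in the rise was not tested.

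Other metabolic lists were mixed. Glycolysis and hypoxia genes gave 3 rises (Tpi1 0.77, Ldha 0.73, Aldoa 0.72) and 3 falls (Vegfa, Pfkfb3 and Hk2) of 23. The call of Hk2 was lost without any single array other than day 11 replicate 2, and it was -0.59 without day 11 replicate 3. Of 18 cholesterol synthesis genes 5 rose and 1, the sterol-sensing Insig1 (-1.12 ± 0.28), fell; there were 2 calls without day 11 replicate 1 and 3 without day 11 replicate 3 or untreated replicate 4. In lipid handling 3 of 28 rose and 4 fell, with 4 calls without day 11 replicate 3 or untreated replicate 1 or 2. The fatty acid binding protein gene Fabp5 read 10.19, 10.53 and 10.56 at day 11 and 9.28, 8.95 and 7.87 untreated, and the oxysterol receptor gene Nr1h3 (LXR-alpha) rose by 1.09. Acp5, tartrate-resistant acid phosphatase, rose 6.08-fold, with 9.93, 9.95 and 9.82 at day 11 and 6.49, 8.16 and 7.25 untreated. Slc13a3, a sodium-coupled dicarboxylate transporter gene, rose 11.4-fold with no overlap between 10.94, 10.94 and 11.63 at day 11 and 8.13, 7.99 and 6.88 untreated. The lipoxygenase gene Alox15 fell by 1.45. Iron import genes fell, Tfrc (transferrin receptor) by 1.57 and Slc11a2 (DMT1) by 1.81, within a list of 20 that had 1 rise and 5 falls. Lysosomal genes gave 0 rises and 5 falls of 30, all by at most 1.11, and between 1 and 3 falls without day 11 replicate 1 or 2 or untreated replicate 1 or 4. The lysosomal share called was 16.7%, near the 14.9% of all genes. It was 26.1% for glycolysis and hypoxia, 33.3% for cholesterol synthesis, 25.0% for lipid handling and 30.0% for iron and heme.

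Of 29 tested matrix remodelling and growth factor genes 1 rose, the membrane metalloprotease gene Mmp14 (1.35 ± 0.41), and 9 fell, beside 7.49% of all genes lower, and 19 did not pass the test. The urokinase gene Plau read 7.23, 8.02 and 8.09 at day 11 and 10.89, 10.57 and 10.96 untreated (-3.03 ± 0.38), and its receptor gene Plaur fell by 1.81 ± 0.19. Mmp9 and Mmp12, which degrade gelatin and elastin, fell by 2.10 and 2.34, and Mmp12 had one day 11 array at 7.85 close to the untreated 7.92. Platelet-derived growth factor genes Pdgfa and Pdgfb and Vegfa fell by 0.74, 1.04 and 1.39. Cell cycle genes gave little: 2 of 34 S phase genes rose and 0 fell, and 1 of 41 G2 and M genes rose and 1 fell. These are 5.88% and 4.88% called, beside 14.9% of all genes. The rises, Rfc3, Tyms and Cdc20, lost their calls without day 11 replicate 3 (0.92, 0.73 and 0.62), without untreated replicate 4 (0.90, 0.52 and 0.62) and without some other arrays. The one that fell was the proliferation marker gene Mki67, with 5.75, 5.66 and 5.58 at day 11 and 7.25, 7.49 and 6.85 untreated (limma adjusted p = 0.000371).

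Mir99a, which hosts a microRNA, ranked among the largest falls, at 3.23, 3.22 and 3.23 on day 11 arrays and 3.36, 8.04 and 9.78 on untreated arrays. Its untreated values ranged over more than 6 log2 units, and without untreated replicate 4 the call was lost (-2.47, limma adjusted p = 0.0621). The probe set reads transcript from the locus and not the mature RNA. The mature 5p product is shown to identify the locus (RefSeq, GRCm38.p6, chr16:77598940-77598961, plus strand), with the seed, bases 2 to 8, in capitals.
mmu-miR-99a-5p: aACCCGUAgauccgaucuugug

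Markers of the remaining cell types were counted in the same way. Of 16 fibroblast markers 15 had a lower mean at day 11 (median -0.41), and 1 was called, Sparc (-1.47 ± 0.50), a call lost without any single array other than day 11 replicate 3. In the T cell list 1 of 14 rose, Cd4, a call lost without any one of 4 arrays, while Cd3d, Cd3e, Cd3g and Cd8a were not called. Mast cell, eosinophil, and endothelial and melanocyte lists had 0 calls of 9, 5 and 12 tested (limma), and 0 members at an unadjusted p under 0.05. The Langerhans cell list had 1 fall of 8 (Mmp9). The B cell list had 1 rise (Cd79b, 1.97) and 1 fall (Blnk, -1.02) of 9, and the innate lymphoid list 1 rise (Eomes, with all values below 3.77) and 1 fall (Ccl5, a chemokine gene, -2.10) of 9; the calls of Cd79b, Blnk and Eomes were lost when single arrays were left out. Conventional dendritic cell markers gave 1 rise and 4 falls of 20, 25% called beside 14.9% of all genes. The falls were Cd209a, P2ry10, Irf4 and Flt3, the rise was Batf3, and the list's median was -0.11. Their averaged level lay at 5.10 to 5.19 at day 11 and 5.45 to 5.52 untreated, without overlap. Most of that gap comes from Cd209a (-3.17) and P2ry10 (-2.02), and 14 means were lower and 6 higher. Cd209a, also on the resident macrophage list, fell by 3.03 in MHCIIlow macrophages. The defining genes Xcr1 and Clec9a read below 3.77 on all 6 arrays, Zbtb46 between 4.05 and 4.65, and Flt3 at 5.25, 5.70 and 5.25 at day 11 against 6.62, 5.69 and 6.91 untreated (-1.01 ± 0.22).

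**Figure D3:**
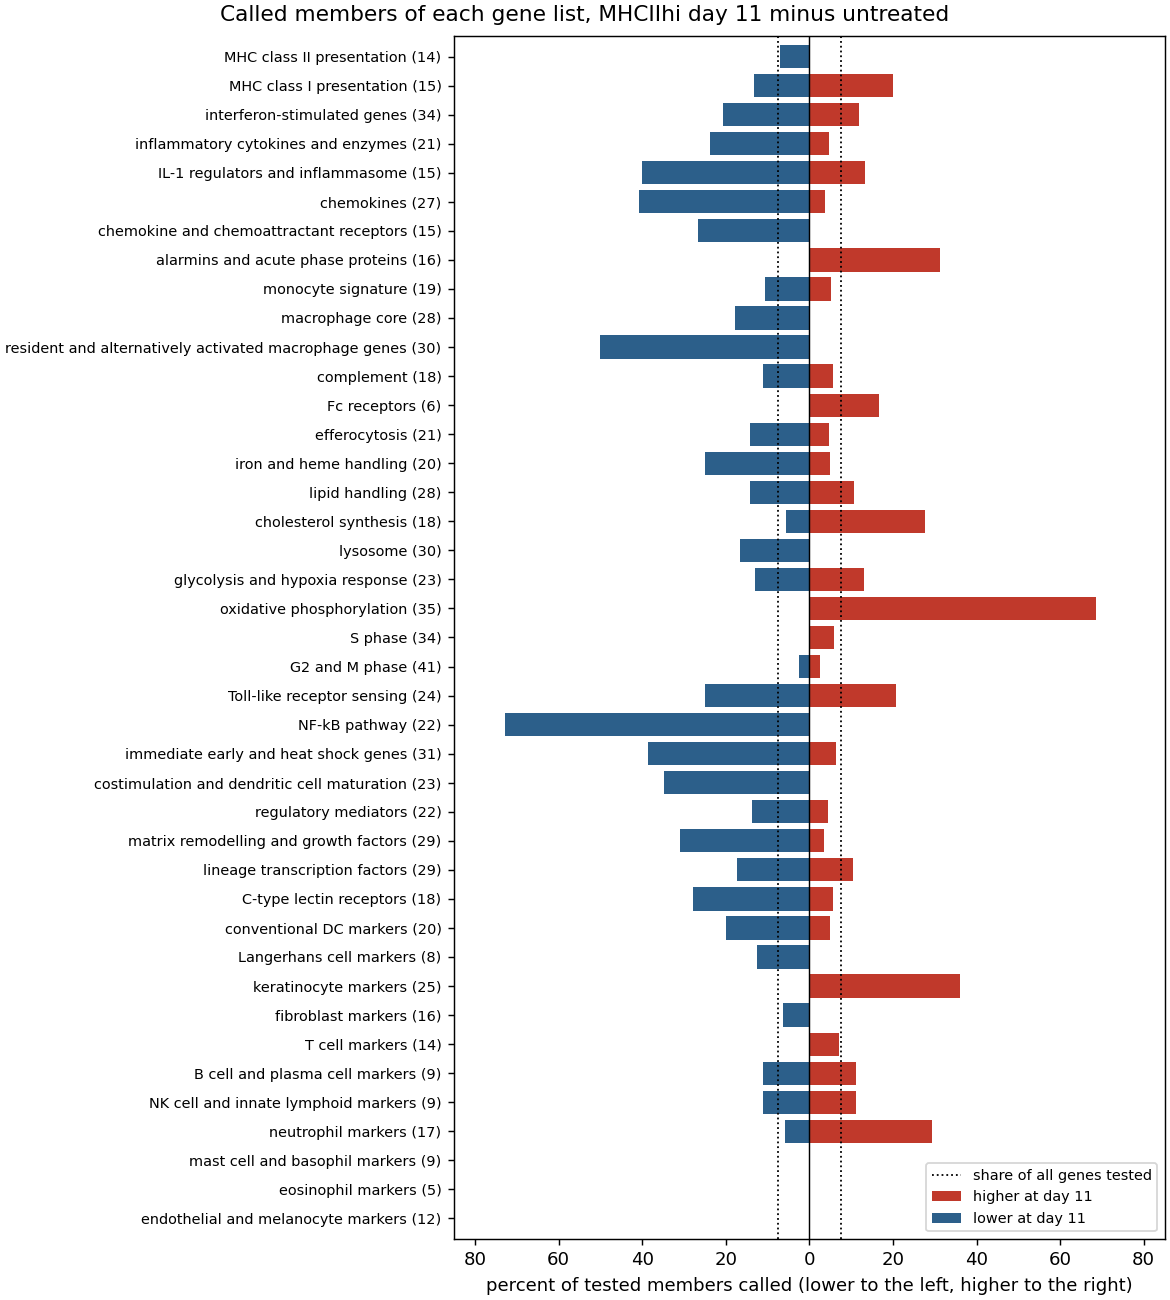
Percent of the tested members of each gene list (number tested in brackets) that were called higher (right) or lower (left) at day 11 in MHCIIhi macrophages; the dotted lines mark 7.45% and 7.49%, the shares of all genes tested. NF-kB and resident genes extend farthest to the left, at 72.7% and 50%, and oxidative phosphorylation farthest to the right, at 68.6%.

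The response of MHCIIhi macrophages was then set against that of MHCIIlow macrophages, which share no arrays with them but the same state of skin. Of 15591 genes 7 differed in response (0.0449%, limma interaction, adjusted p under 0.05), 2 higher (0.0128%) and 5 lower (0.0321%) in MHCIIhi cells. In MHCIIlow macrophages themselves 4.33% of genes were called higher and 5.39% lower. Of the 1162 genes higher at day 11 in MHCIIhi cells, 442 (38.0%) were also higher in MHCIIlow cells, where they made up 65.5% of the rises. Of the 1168 lower genes 568 (48.6%) were also lower, 67.5% of the MHCIIlow falls, and 0 genes were called in opposite directions. Across genes the changes correlated at r 0.73, a description of genes measured on arrays whose sample letters run with treatment in both populations.

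Ccl17 had the largest called difference in response (-4.27, limma adjusted p = 7.8e-05). In MHCIIlow macrophages it read 4.97, 4.90 and 4.58 at day 11 and 4.55, 4.52 and 5.66 untreated, and 5 of the 6 MHCIIhi arrays lay above the highest of these. Cytip, which encodes a regulator of leukocyte adhesion, followed the same pattern, with 6.28, 6.50 and 6.47 in MHCIIhi cells at day 11 and 9.01, 8.68 and 9.64 untreated, beside 5.94 to 6.28 and 6.24 to 6.75 in MHCIIlow cells. P2ry10, a lipid receptor gene from the dendritic cell list, and F2rl2, a thrombin receptor gene, gave differences of -2.53 and -2.79. Plbd1, a phospholipase B-like gene, rose in MHCIIlow cells (2.06) and was not called in MHCIIhi cells (0.42), a difference of -1.64. Cmah and Slc27a6 fell in MHCIIlow cells (-2.37 and -1.12), with differences of 1.57 and 1.11, and Slc27a6 stayed below 3.77 on all MHCIIhi arrays. Of the 7, F2rl2, P2ry10 and Slc27a6 lost the call when single arrays of either population were left out, and the count ranged from 4 (without day 11 MHCIIhi replicate 3 or day 11 MHCIIlow replicate 2) to 13 (without untreated MHCIIhi replicate 1). When the spread was estimated from the groups compared alone, Ccl17 was not called (limma adjusted p = 0.222). Cytip (limma adjusted p = 0.0832), Plbd1, Cmah, F2rl2 and Slc27a6 were not called in that run either.

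The 4 of these genes that fell in MHCIIhi cells had higher group means in CD11b DC than in either macrophage population in the same state. In CD11b DC Ccl17 read 12.04, 12.08 and 11.56 at day 11 and 12.39, 12.21 and 12.14 untreated, and P2ry10 read 8.26, 8.37 and 9.09 against 8.40, 9.15 and 8.57. At day 11, F2rl2 read 7.74 to 8.13 and Cytip 8.71 to 9.70 in those cells. Of the 20 dendritic cell markers in the MHCIIhi sort 4 fell, P2ry10 among them, and 15 did not pass the test; the part of admixed dendritic cells in these 4 differences was not tested. MHC class II genes gave no called difference in the 14 tested, although 5 rose in MHCIIlow cells: H2-Ab1 changed by -0.06 in MHCIIhi and 0.79 in MHCIIlow macrophages (difference -0.85, limma adjusted p = 0.217). These populations were themselves separated by MHC class II, so the gates bear on both responses.

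**Figure D4:**
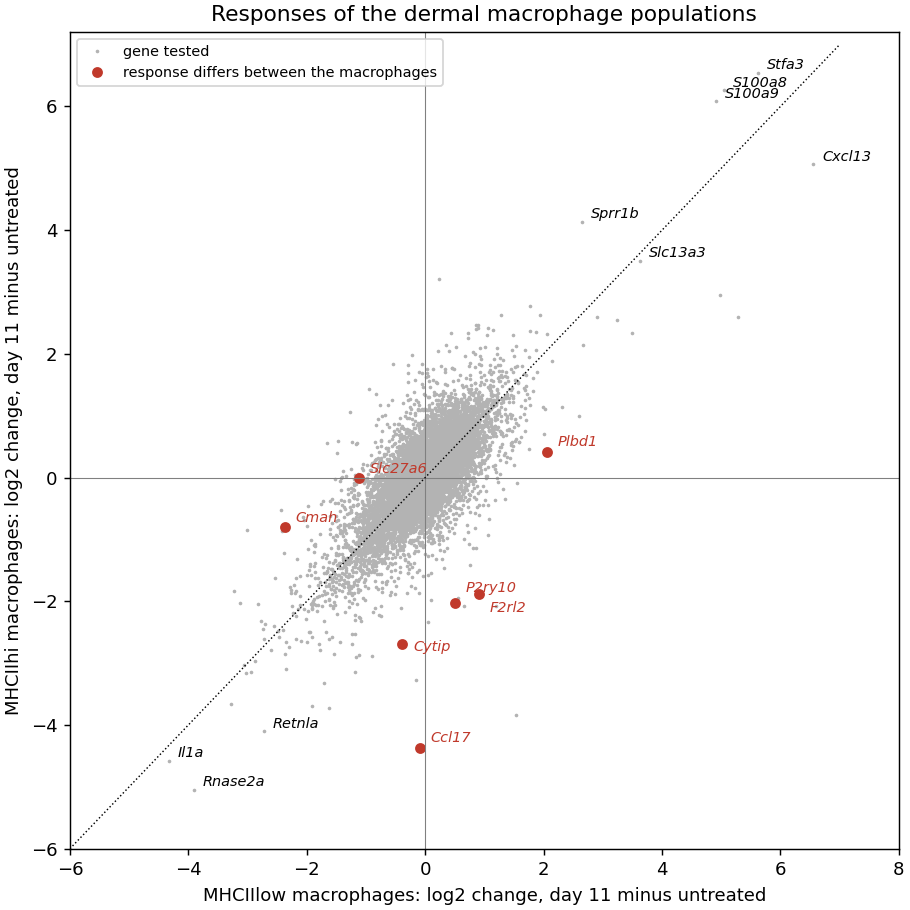
Log2 change (day 11 minus untreated) of each of 15591 genes in MHCIIhi (vertical axis) against MHCIIlow macrophages (horizontal axis), with the line of equal change dotted and the 7 genes whose responses differed in red. Stfa3, S100a8, S100a9 and Cxcl13 lie far up near the line, and Ccl17 lies at -4.36 for MHCIIhi and -0.09 for MHCIIlow cells.

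Against dendritic cells of the same skin more genes differed, 109 (0.699%; 0.334% higher, 0.366% lower) for CD11b DC and 72 (0.462%; 0.218% higher, 0.244% lower) for moDC. In CD11b DC themselves 3.55% of genes rose and 6.79% fell at day 11, and in moDC 8.42% were called, 2.58% higher and 5.84% lower. The Cxcl13 rise had the largest positive called difference in both (4.49 and 4.83): CD11b DC read 4.13, 4.03 and 4.37 at day 11 and 3.63, 3.64 and 3.53 untreated. In MHCIIlow macrophages Cxcl13 read 11.27, 10.99 and 11.38 at day 11 and 5.67, 3.80 and 4.52 untreated, and the macrophage responses were not called different. Rnase2a fell in both macrophages, and its CD11b DC values were 2.95 to 3.16 at day 11 and 2.80 to 3.91 untreated (differences -4.82 for CD11b DC and -5.01 for moDC). Slc13a3 rose in both macrophages and differed from CD11b DC by 3.57. The lectin gene Cd209e fell in MHCIIhi macrophages and differed from moDC by -3.07. With arrays centred on their medians, the share of higher genes among the calls was 70.7% for CD11b DC and 57.6% for moDC, against 47.7% and 47.2% in the deposited scale, and the median gene's difference from CD11b DC was 0.17, against 0.04. The counts were 53 for CD11b DC and 34 for moDC without untreated MHCIIhi replicate 4, 174 and 128 without untreated MHCIIhi replicate 1, and 62 and 23 without day 11 replicate 2 of the dendritic cells themselves.

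**Figure D5:**
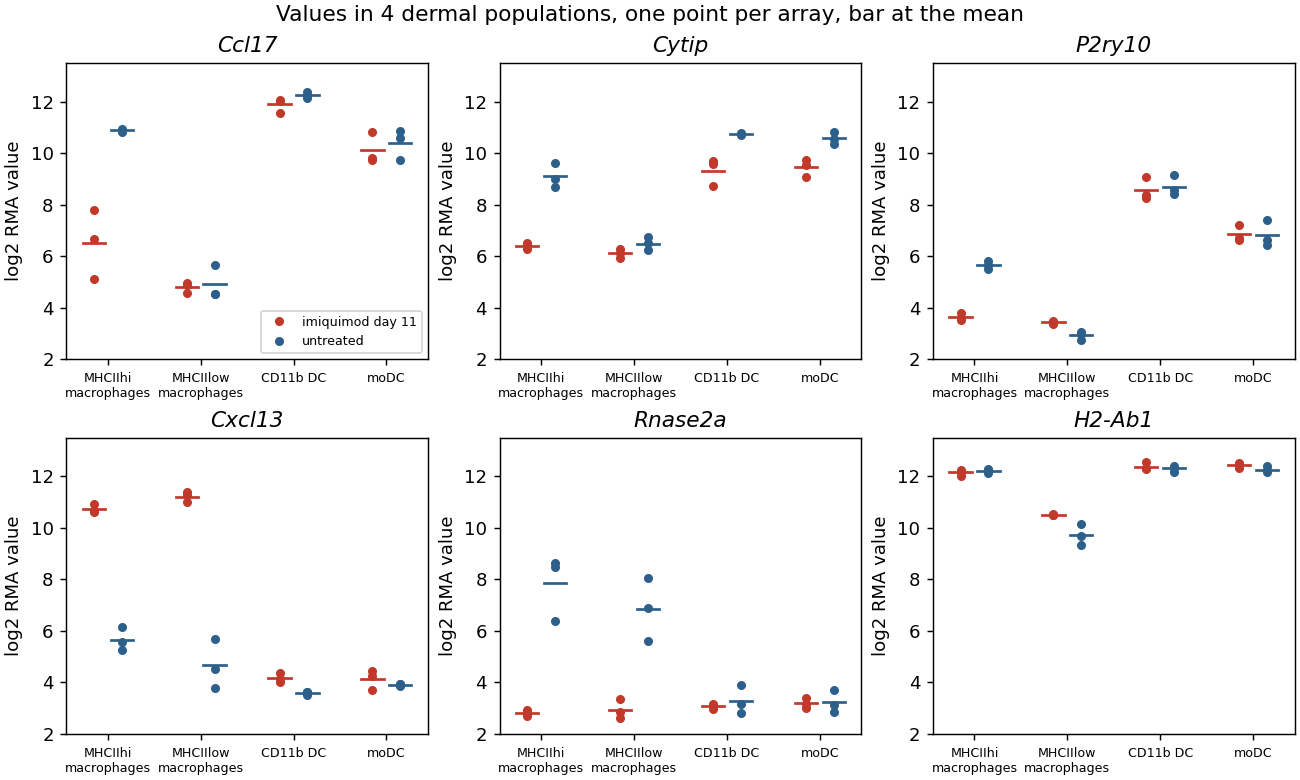
Log2 values of 6 genes on each array of 4 dermal populations, with day 11 on the left and untreated on the right and a bar at the mean of 3 arrays. Ccl17, Cytip and P2ry10 are lower at day 11 in MHCIIhi macrophages and are high in CD11b DC in both states, Cxcl13 rises in both macrophage populations, Rnase2a falls in both, and H2-Ab1 stays near 12 in MHCIIhi cells.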

How the data were processed

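Sorted cells were hybridised to mouse gene arrays after 2 rounds of RNA amplification, per the labels' protocols. The deposited values are log2 intensities that the authors summarised per probe set, and the submitters' processing notes name RMA, oligo and limma; their versions are not given in the sources used here. Probe sets were named through the platform annotation and RefSeq (21789 of 35556 had 1 symbol). A probe set was kept if its value exceeded 3.77 (the 40th percentile) on 3 or more of 48 arrays, and the one of highest mean stood for each of 15591 genes. limma 3.58.1 (R 4.3.3) was fitted to 16 group means, and p-values were adjusted by Benjamini-Hochberg over all genes in each of 4 contrasts, with a call at an adjusted p under 0.05. The fit was tested on simulated data. The members and gene lists were chosen with earlier results of these data known. Named genes were the 15 largest called rises and falls with non-overlapping groups, up to 5 called members of each list by size, a fixed panel, defining markers, and the 5 highest and 5 lowest called differences in response; further list members are named as examples and were chosen after their values were seen. Ly6c2 and C3, on the panel, were not tested. The number of arrays limits the precision.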

Additional observations from a re-analysis of the deposited data

Results flagged for a closer look

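Each of the following is a test of the difference between 2 responses to imiquimod at day 11, with MHCIIhi macrophages first and limma adjusted p under 0.05 over all genes. Against MHCIIlow macrophages, the response was lower for Ccl17 (-4.27), F2rl2 (-2.79), P2ry10 (-2.53), Cytip (-2.31) and Plbd1 (-1.64) and higher for Cmah (1.57) and Slc27a6 (1.11).

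Against CD11b DC, the response was higher for Cxcl13 (4.49), Slc13a3 (3.57), the cell cycle gene Cdca5 (2.45), the VEGF receptor gene Flt1 (2.40) and Irak3 (2.36). It was lower for AA467197 (-5.24), Rnase2a (-4.82), Ccl17 (-4.01), Cd7 (-3.91) and the small nucleolar RNA gene Snora75 (-3.75). Within MHCIIhi macrophages, Cdca5 rose by 1.51 with 5.36 to 5.57 at day 11 and 3.90 to 3.93 untreated, whereas Flt1 (-0.54) and AA467197 (-1.86) were not called. The calls for AA467197, Cd7, Irak3 and Snora75 were lost when single arrays were left out. With only the groups compared, Ccl17 (limma adjusted p = 0.0561), Slc13a3 and Flt1 were among those not called.

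Against moDC, the response was higher for Cxcl13 (4.83), Tnfaip6 (3.42), Serpinb10 (3.12), Gpnmb (3.05) and Clca3a2 (2.70). It was lower for Rnase2a (-5.01), Ccl17 (-4.11), Cd7 (-3.48), Pla2g2d (-3.11) and the lectin gene Cd209e (-3.07). Tnfaip6, Serpinb10, Gpnmb and Clca3a2 were not called within MHCIIhi macrophages (-0.32, 1.06, 0.58 and 0.56). The calls for Cd7, Gpnmb and Tnfaip6 were lost when single arrays were left out. With only the groups compared, Ccl17 (limma adjusted p = 0.0939), Pla2g2d and Cd209e were among those not called.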

How the results depend on the processing

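No called change of a named gene reversed under any alternative run, but the balance of calls did move. The 2330 genes called in MHCIIhi macrophages became between 1374 (without untreated replicate 4) and 2178 when single arrays were left out, and 1188 when only the groups compared were fitted; the other alternatives gave 2061 to 2555. The 7 differences from MHCIIlow macrophages became 27 with array weights, 1 with only the groups compared, and 4 to 13 without single MHCIIhi arrays or 4 to 12 without single MHCIIlow arrays, an alternative chosen after seeing the data. For CD11b DC the 109 differences became 23 with only the groups compared, 53 to 174 without single MHCIIhi arrays and 62 to 157 without single CD11b DC arrays. For moDC the 72 became 47 with array weights, 18 with only the groups compared, 34 to 128 without single MHCIIhi arrays and 23 to 96 without single moDC arrays. With median-centred arrays 1407 genes were higher and 933 lower in the main comparison, against 1162 and 1168, and 38 and 28 for moDC, against 34 and 38. The MHCIIlow differences were 15 higher and 12 lower with array weights (55.6% higher) and 42.9% higher with median-centred arrays, against 2 and 5 (28.6%). The cause of these shifts was not tested. With the title number as a replicate block the counts were 2124, 7, 147 and 92. Deviations of same-numbered arrays correlated at -0.01 and 0.06. So few pairs cannot show whether same-numbered arrays share a mouse or a batch, and the labels do not say what the number marks. Of 178 named genes, 152 were called and 100 were called under every alternative.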

Other observations

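Some gene families, which the lists hold only in part or not at all, were examined after their values had been seen. All 7 tested genes of the Cd209 family were called lower in MHCIIhi macrophages at day 11, beside 7.49% of all genes. Their median change was -2.57, with a range of -3.72 to -1.23. They encode C-type lectins related to human DC-SIGN, and Cd209e averaged 3.94 ± 0.33 at day 11 and 6.51 ± 1.03 untreated (SD, n = 3 each). In MHCIIlow macrophages 5 of the 7 fell and 0 differences in response were called. In CD11b DC and moDC 1 of the 7 fell, and the difference in response was called for 3 against CD11b DC and 4 against moDC.

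Of 77 tested genes for proteins of the mitochondrial ribosome, which translates the messages of mitochondrial DNA, 40 were called higher and 0 lower. Of all genes 7.45% were higher and 7.49% lower. The family's median change was 0.77, with a range of 0.19 to 1.92. Mrpl14 averaged 8.75 at day 11 and 6.83 untreated. In MHCIIlow macrophages 29 rose and 0 fell, in CD11b DC 17 rose and 0 fell, and in moDC 14 rose and 1 fell. Of 70 genes for proteins of the cytosolic ribosome 11 rose and 3 fell, beside 7.45% and 7.49% of all genes, with a median of 0.14.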
